A study of Mus musculus with 36 samples.

Results

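Female primordial germ cells (PGCs) were compared at E13.5 and at E16.5 between fetuses of control mice and fetuses exposed to intrauterine hyperglycemia (IUHG), to find which genes differed by IUHG at one stage but not to the same extent at the other. The members were all genes with a mean of at least 1 TPM (transcript level per length, scaled to a fixed sum per sample) in any of the 4 groups of female PGCs, which gave 20584 of the 57126 genes in the tables, measured in 12 of the 36 samples of the series. For each gene the value of interest was the stage by IUHG interaction, which is the IUHG minus control difference at E16.5 minus the IUHG minus control difference at E13.5, on the log2(TPM + 1) scale. A value above 0 therefore means that the gene was relatively higher under IUHG at the later stage, and the scale understates the change of genes of low level.

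The 4 groups were E13.5 female control, E13.5 female IUHG, E16.5 female control and E16.5 female IUHG, with 3 samples in each. A further 3 samples were control PGCs of E12.5, whose sex the labels give as not determined. They entered no test on the 12 samples and served beside these only to show the course of genes in controls. An alternative run, with all PGC groups in one fit, also used the E12.5 control and IUHG samples and the male PGC samples of both stages. There they entered only the estimate of the spread. All fetuses were wild type by label and came from fathers carrying the *Oct4-EGFP* reporter, so that germ cells could be sorted by green fluorescence, and each sample was a pool of PGCs from several fetuses. In the IUHG groups the mother received streptozotocin (STZ), a toxin of the insulin-producing beta cells, on day 3.5 of pregnancy. The dose was 120 mg/kg, and pregnancies with blood glucose above 14 mM on day 6.5 were used. The labels call the other fetuses the control group and do not state an injection. As the model raises glucose through a drug given to the mother, the effects of glucose and of the drug cannot be told apart in these 12 samples. Nothing in the labels ties a pool to a litter, so p-values measure the spread between pools.

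PGCs are the embryonic precursors of eggs and sperm. After they reach the fetal ovary they shut off pluripotency genes, switch on *Stra8* and *Meiosin* in response to retinoic acid and BMP signals, and enter meiotic prophase, in which chromosomes build an axis and a synaptonemal complex, break and repair their DNA and attach their ends to the nuclear envelope. Later in prophase the first factors of the oocyte program, such as FIGLA, LHX8, SOHLH1 and NOBOX, come on.

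The aligned amount of sequence, estimated from the ratio of coverage to FPKM, ran from 3.25 to 6.55 gigabases per sample. E13.5 IUHG sample 3 stood apart from its group: its correlation with the other 2 samples over genes was 0.944 to 0.946, against 0.981 between those 2, and 3240 genes lay more than 1 log2 unit outside them. E16.5 IUHG samples 1 and 2 correlated at 0.925, and sample 3 lay between them in 62.7% of genes, against 20.6% to 48.8% for the other 11 samples. The correlation of sample 3 with the mean of samples 1 and 2 was 0.987, against 0.986 to 0.989 for the same measure in E13.5 controls. Whether sample 3 is an independent pool was not tested, and if it were not, n = 3 would be too high and p-values too small. The number of genes above 0 was 21077, 22231 and 24451 in the 3 E16.5 IUHG samples and 25027 to 26048 in the E16.5 controls. The germ cell markers *Ddx4*, *Dazl*, *Pou5f1*, *Dnd1* and *Mael* summed to between 2616 and 4763 TPM in every sample, and the Y-linked genes to at most 0.601 TPM. The members of the germ cell sum were not steady. *Pou5f1* was at 88.5 to 142 TPM in E13.5 controls, 143 to 288 TPM in E13.5 IUHG samples and 3.05 to 13.6 TPM at E16.5. *Dnd1* and *Mael* also differed by IUHG, as given below. Markers of other cells were mostly low but not even between groups: the interstitial markers (*Col1a1*, *Tcf21* and others) summed to 18.5 to 38.0 TPM in E16.5 controls and 55.9 to 73.2 TPM in E16.5 IUHG samples, and their part in the results was not tested. The Sertoli markers summed to 87.8 to 99.3 TPM in E13.5 controls and 131 to 196 TPM in E13.5 IUHG samples, and the endothelial markers to 52.5 to 70.7 TPM and 89.3 to 209.7 TPM. Most of these sums came from *Dmrt1* (means 94.1 and 154 TPM) and *Pecam1* (62.4 and 141 TPM), which germ cells also express. Of the 5 Sertoli markers, 2 were under 1 TPM on average in all 4 groups, as were 3 of the 5 endothelial markers. Of the 3 Sertoli markers tested, 1 was higher and 2 were lower under IUHG at E13.5, and of the 2 endothelial markers tested, 1 was higher and 1 lower. The part of these markers in the E13.5 differences was not tested. Red blood cell markers summed to 5.14 to 37.9 TPM in E16.5 controls and 8.06 to 293 TPM in E16.5 IUHG samples. Among them, *Hba-a1* was at 137 TPM in E16.5 IUHG sample 3, against 1.61 and 4.93 TPM in samples 1 and 2. Pregranulosa markers summed to 50.6 to 68.8 TPM in E16.5 controls and 64.1 to 78.7 TPM in E16.5 IUHG samples. Of the 11 members, 7 were higher and 4 lower under IUHG at E16.5. Among the lower, *Kitl* was at 4.90, 4.68 and 2.41 TPM in E16.5 controls and 0, 0.559 and 0.805 TPM under IUHG. *Foxl2* was at 1.45, 1.71 and 2.67 TPM and 0.549, 1.33 and 0.623 TPM. The part of the red blood cell and pregranulosa markers in the E16.5 differences was not tested.

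Of the 20584 genes, 385 (1.87% of those tested) passed the interaction test (limma, adjusted p below 0.01 and a difference over 1 log2 unit). The interaction was above 0 for 271 genes (1.32%) and below 0 for 114 (0.554%). At an unadjusted p below 0.05 there were 4634 genes (22.5% of those tested), and over all genes the E13.5 and the E16.5 effect had a Pearson correlation of -0.001, a description across genes, which are not independent replicates. The median interaction over all genes was -0.10, so values below are to be read against that small offset. The count depended on single samples. It was 623 without E13.5 IUHG sample 3, 198, 228 and 210 without E13.5 control sample 1, 2 or 3, 256, 211 and 222 without E16.5 control sample 1, 2 or 3, and 193 without E16.5 IUHG sample 3.

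By the size of the effects, the 385 genes fell into several patterns. A gene was counted as caught up when its E13.5 effect was over 1 log2 unit and its E16.5 effect was not, and as late when the reverse held. There were 153 genes that caught up from below, 9 that caught up from above, 73 that were lower only late and 27 that were higher only late. A further 50 genes had effects over 1 of opposite sign, 3 had effects over 1 of the same sign but unequal size, and 70 had neither effect over 1 and are called split. The patterns describe sizes, and only the interaction was tested. The split of the late genes depended on single samples: the late lower and late higher genes numbered 33 and 8, 33 and 8, and 31 and 6 without E13.5 control sample 1, 2 or 3, and 40 and 11, 33 and 10, and 104 and 49 without E13.5 IUHG sample 1, 2 or 3. They numbered 54 and 16, 38 and 10, and 46 and 14 without E16.5 control sample 1, 2 or 3, and 49 and 43, 64 and 49, and 35 and 11 without E16.5 IUHG sample 1, 2 or 3. Genes that caught up from below numbered 242 without E13.5 IUHG sample 3, 98 without E16.5 control sample 2 and 95 without E16.5 IUHG sample 3. At the border of the first pattern, *2810408A11Rik* was inside with an E16.5 effect of 0.99 and *Fam83g* was outside with 1.03. For the late lower genes, *Trim6* was inside with an E13.5 effect of 1.00 and *Marcksl1* was outside with 1.01.

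**Figure D1:**
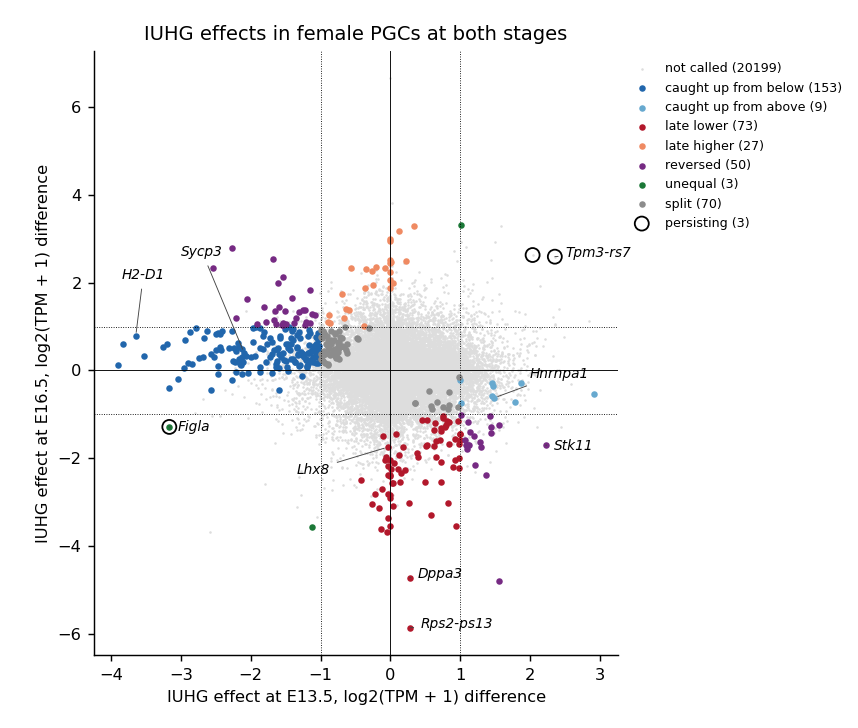
The IUHG minus control difference at E13.5 (x axis) and at E16.5 (y axis), both in log2(TPM + 1) units, with 1 point per gene and the interaction-called genes colored by pattern, dotted lines at a difference of 1 and -1, and circles around the 3 genes called at both stages with one sign. The 153 genes that caught up from below lie at the left near the horizontal zero line, with a median of -1.59 at E13.5 and 0.40 at E16.5, and the 73 late lower genes lie at the bottom with medians of 0.38 and -2.05.

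Genes of every meiotic list were among those that caught up from below. *Sycp3*, an axis protein of the synaptonemal complex, stood at 1480.0, 1596 and 1257 TPM in E13.5 controls and at 340.1, 342 and 324 TPM in E13.5 IUHG samples, and at E16.5 at 4982, 4630.3 and 4694 TPM in controls against 6572, 5532 and 6963 TPM under IUHG. At E13.5 every IUHG sample was below every control, whereas at E16.5 every IUHG sample was above every control. The E13.5 effect was -2.10 (95% interval -2.34 to -1.85), the E16.5 effect 0.41 (0.16 to 0.65) and the interaction 2.50 ± 0.161 (SE, limma adjusted p = 1.13e-06, n = 3 per group). On Mm39 the tables list *Sycp3* (ENSMUSG00000020059.10) on chr10:88295431-88309098, plus strand. As these are bulk pools, fewer cells that express a gene and less RNA per cell cannot be told apart, here or below.

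Both initiators of the meiotic program in the meiotic entry list passed the test, but the list did not move as one. Of its 10 tested genes, 5 were lower and 5 higher under IUHG at E13.5. The list medians were -0.08 at E13.5 and 0.20 at E16.5, against 0.08 and 0.01 over all genes. *Meiosin*, the partner of STRA8, was at 204, 168 and 217 TPM in E13.5 controls, 18.1, 26.1 and 36.5 TPM in E13.5 IUHG samples, 219.6, 232 and 253 TPM in E16.5 controls and 448, 419 and 419 TPM in E16.5 IUHG samples. *Stra8* was at 1936, 1718 and 1841 TPM in E13.5 controls, 466, 491 and 326 TPM in E13.5 IUHG samples, 161, 123 and 149.8 TPM in E16.5 controls and 206, 122 and 179 TPM in E16.5 IUHG samples. *Stra8* thus converged at a low level after its early peak, with overlapping groups at E16.5, while *Meiosin* stayed on and was higher in all 3 IUHG samples at E16.5. The interaction was 3.74 ± 0.284 for *Meiosin* (SE, limma adjusted p = 3.02e-06, n = 3) and 2.31 ± 0.277 for *Stra8* (limma adjusted p = 0.000191). The other 8 genes of the entry list did not pass, among them the RNA-binding protein gene *Dazl*, with an interaction of -0.02, and the meiotic cohesin *Rec8*, with effects of -0.46 and -0.12 and an interaction interval from -1.20 to 1.86.

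The structural groups of meiosis moved in the same direction wherever they passed, and no gene of the 4 structural lists was called below 0. Of all genes tested, 1.32% were called above 0 and 0.554% below 0. Of 9 tested genes of the synaptonemal complex and axis, 6 were called above 0 (*Sycp3*, *Tex12*, *Syce1*, *Hormad1*, *Syce3* and *Hormad2*), and the list medians were -1.11 at E13.5 and 0.30 at E16.5, against 0.08 and 0.01 over all genes. *Tex12*, a central element protein, was at 716, 774 and 642 TPM in E13.5 controls against 198, 163 and 181 TPM under IUHG, and at 1115, 956 and 1013 TPM in E16.5 controls against 1797, 1438 and 1648 TPM under IUHG. *Syce3*, another central element gene, was low in controls at E13.5 and abundant at E16.5. It was at 75.7, 76.8 and 67.7 TPM in E13.5 controls, 21.1, 13.3 and 6.65 TPM in E13.5 IUHG samples, 1109, 887 and 1045 TPM in E16.5 controls and 1028, 909 and 928 TPM in E16.5 IUHG samples, where the groups overlapped. The call of *Syce3* was lost without E16.5 control sample 2 or 3. *Sycp1*, the transverse filament, had effects of -0.86 and -0.06 and an interaction of 0.80 (0.38 to 1.22), short of the thresholds (limma adjusted p = 0.0284).

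Of 10 tested genes of meiotic cohesin and telomere attachment, 6 were called above 0 (*Majin*, *Spdya*, *Rad21l*, *Terb2*, *Terb1* and *Kash5*), with medians of -1.56 and 0.62. *Rad21l*, a kleisin of meiotic cohesin, was at 10.7, 10.3 and 13.0 TPM in E13.5 controls, 0.222, 0.132 and 1.99 TPM in E13.5 IUHG samples, 23.3, 29.2 and 48.9 TPM in E16.5 controls and 60.2, 43.9 and 56.0 TPM in E16.5 IUHG samples. *Majin*, which with *Terb1* and *Terb2* joins telomeres to the nuclear envelope, averaged 74.4 ± 3.93 TPM in E13.5 controls and 13.1 ± 2.86 TPM in E13.5 IUHG samples, then 159.9 ± 12.0 and 234 ± 22.7 TPM at E16.5 (SD, n = 3). The call of *Terb2* was lost without any single E16.5 control. The cohesin genes *Smc1b* and *Stag3* were not called, with interactions of 1.00 and 0.93.

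Among 8 tested genes of double-strand break formation, 4 were called above 0, and the medians were -1.23 and 0.33. *Prdm9*, the methyltransferase that places meiotic breaks, was at 29.7, 27.3 and 30.1 TPM in E13.5 controls, 7.05, 5.09 and 4.00 TPM in E13.5 IUHG samples, 67.5, 75.1 and 80.5 TPM in E16.5 controls and 122, 148 and 146 TPM in E16.5 IUHG samples. The others were *Zcwpw1*, the reader of the PRDM9 mark, *Iho1*, which carries the break machinery on the axis, and *Mei1*, with interactions of 1.59, 3.32 and 3.03. *Spo11* itself, the enzyme that cuts, had effects of -0.32 and 0.38 and was not called (limma adjusted p = 0.21).

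In strand exchange and crossover, 6 of 21 genes were called above 0 (*Meiob*, *Spata22*, *Msh5*, *Dmc1*, *Rnf212* and *Hsf2bp*), with medians of -0.99 and 0.32. Without E13.5 IUHG sample 3 the number was 11. *Spata22*, the partner of MEIOB on single-stranded DNA, was at 12.8, 10.3 and 17.5 TPM in E13.5 controls and listed at 0, 0.895 and 0 TPM in E13.5 IUHG samples, and it reached 88.4, 103 and 95.0 TPM in E16.5 controls and 119, 117 and 122 TPM under IUHG. *Dmc1*, the meiotic recombinase, was at 92.3, 92.8 and 91.4 TPM against 33.6, 34.5 and 43.3 TPM at E13.5, and at 135, 147 and 153 TPM against 282, 207 and 241 TPM at E16.5. The late crossover factors *Mlh3* and *Mnd1* had interactions of -0.56 and -0.40 and were not called.

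**Figure D2:**
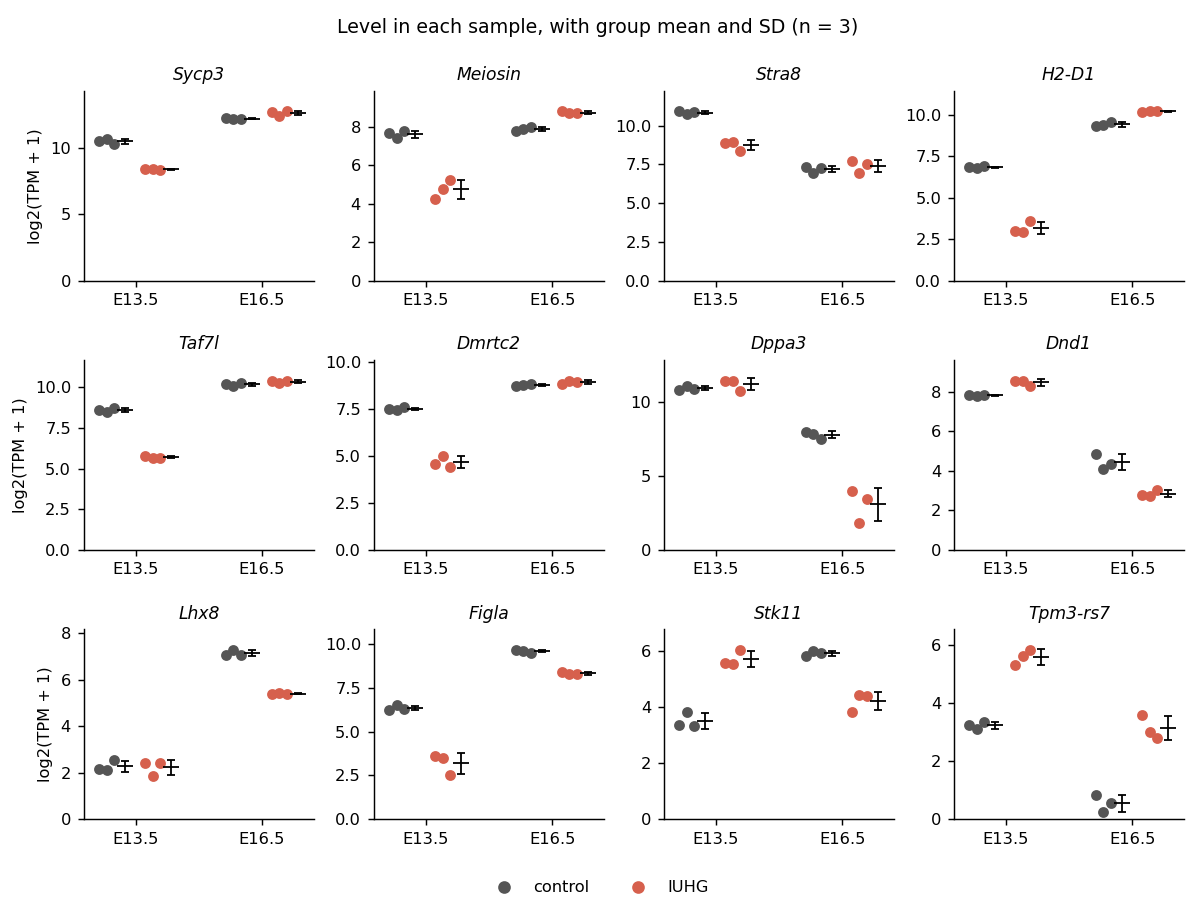
Level on the log2(TPM + 1) scale (y axis) of named genes in each of the 12 samples by stage (x axis), with 1 point per sample, gray for control and red for IUHG, and the group mean with its SD beside the points (n = 3). For *Sycp3*, the E13.5 IUHG samples lie at 324 to 342 TPM, below the control range of 1257 to 1596 TPM, whereas at E16.5 they lie at 5532 to 6963 TPM, above all control samples.

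Of the other genes in the pattern, *Taf7l*, *Dmrtc2*, *M1ap* and *Tex101* are known from the germ line. *Taf7l*, a subunit of the germ cell form of TFIID on the X chromosome, was at 383, 351 and 427 TPM in E13.5 controls, 53.5, 49.5 and 49.2 TPM in E13.5 IUHG samples, 1169, 1108 and 1229.7 TPM in E16.5 controls and 1342, 1214 and 1373 TPM in E16.5 IUHG samples. Its E16.5 effect was 0.16 with an interval of -0.09 to 0.41, and the groups overlapped there. *M1ap*, needed for meiosis in the testis, averaged 539 ± 54.0 against 143 ± 30.0 TPM at E13.5 and 642 ± 41.6 against 1268 ± 52.9 TPM at E16.5 (SD, n = 3), which placed it near the border to a reversed effect. *Tex101*, a germ cell surface protein counted in the list of male germ cell fate and NODAL, was the only one of 5 genes of that list to be called. It had an interaction of 2.99 (limma adjusted p = 2.02e-06), while *Nodal* had effects of 1.10 and 0.26 and was not called. *Slc25a31*, an ADP/ATP carrier of germ cells, had an interaction of 1.61 (limma adjusted p = 0.000287), and *Ccne2*, a cyclin E, was the only call in the 23 genes of cell cycle and replication, with 2.13 (limma adjusted p = 0.00134).

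Of 11 tested genes of MHC class I and antigen presentation, 4 were called above 0 (1.32% of all genes tested) and none below (0.554%). *H2-D1*, *H2-K1* and *B2m* caught up from below, and *H2-Q4* changed sign. *H2-D1* had the largest interaction of the named genes above 0. It was at 113, 110.2 and 118 TPM in E13.5 controls, 7.07, 6.69 and 11.3 TPM in E13.5 IUHG samples, 646, 661 and 760.3 TPM in E16.5 controls and 1169.8, 1192 and 1194 TPM in E16.5 IUHG samples (interaction 4.43 ± 0.236, SE, limma adjusted p = 1.28e-07, n = 3 per group). *H2-K1* and *B2m*, the shared light chain, had interactions of 2.64 and 1.62, and *H2-Q4* went from an effect of -1.66 to one of 1.35. The call of *B2m* was lost without E13.5 control sample 1 or 2, E16.5 control sample 1 or 2, or E16.5 IUHG sample 3. *Tap1* and *Tap2*, the peptide transporter, *Tapbp*, which helps to load class I molecules, *Erap1*, which trims peptides, and *Psmb9*, an immunoproteasome subunit, were not called. Class I genes are close relatives, so that their levels are uncertain where only unique reads are aligned, and other cells of the ovary also express them. The leukocyte markers summed to 3.88 to 8.32 TPM in E13.5 controls and 4.30 to 8.57 TPM in E13.5 IUHG samples, and to 7.46 to 76.6 TPM and 8.84 to 11.1 TPM at E16.5. Their part in the result was not tested.

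X-linked genes were frequent in the pattern. Of the 153 genes that caught up from below, 28 (18.3%) lay on the X chromosome, against 4.02% of all genes tested. Among the 827 X-linked genes tested, 31 (3.75%) were called above 0, compared with 240 (1.22%) of 19722 autosomal genes, while the median E13.5 effect was 0 for X-linked and 0.08 for autosomal genes. The difference between the chromosomes was not tested. *Xlr4a* (X-linked lymphocyte regulated), one of 8 members of the *Xlr* family in the pattern, was at 279, 289 and 248 TPM in E13.5 controls, 57.5, 57.3 and 64.8 TPM in E13.5 IUHG samples, 519, 414 and 439 TPM in E16.5 controls and 537, 561 and 539 TPM in E16.5 IUHG samples. The *Xlr* genes are near-identical copies, so the split of reads among them is uncertain and they are not 8 separate observations. *Rhox13*, a homeobox gene of the germ line, was the only call among 8 *Rhox* genes, with effects of -1.70 and 0.38.

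At E16.5 the 153 genes were more often higher under IUHG than lower. The effect was above 0 for 140 of them, and the E16.5 groups did not overlap for 106 with IUHG higher (13.7% of all genes tested) and for 4 with IUHG lower (13.4%). The 95% interval of the E16.5 effect held 0 for 84 of the 153 genes, against 16167 of the 20584 genes tested. As a large interaction also favors genes that were high at E16.5, these counts do not stand alone, and the E13.5 call on its own 6 samples, which does not use E16.5, is given next. In that test 13 genes were higher under IUHG (0.0786% of 16539 tested) and 72 lower (0.435%). Of the 72, the E16.5 effect was above 0 for 57 (79.2%, against 50.6% of all genes), with a median of 0.40, and 46 had E16.5 groups that did not overlap with IUHG higher and 9 with IUHG lower. Leaving out E16.5 IUHG sample 1, 2 or 3 gave 59, 57 or 56 genes above 0. Of the 72, 4 differed by more than 1 log2 unit at E16.5 in either direction, against 2403 of the 20584 genes tested. Of the 13 genes higher at E13.5, 6 had an E16.5 effect above 0, and the median was -0.06.

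**Figure D3:**
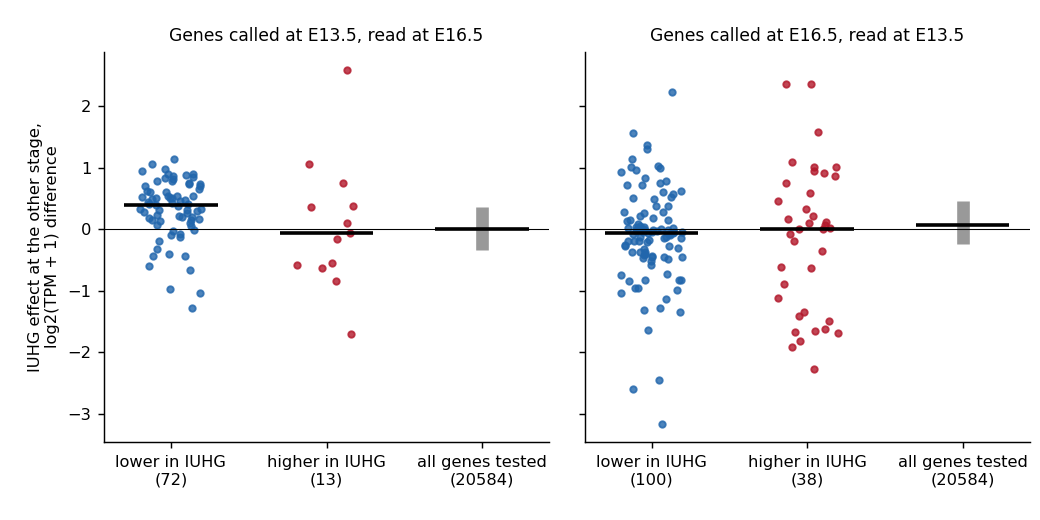
For genes called on the 6 samples of one stage, the IUHG minus control difference at the other stage in log2(TPM + 1) units, with 1 point per gene (blue, lower under IUHG, red, higher), a black bar at the median and, for all genes tested, a gray bar over the interquartile range. The 72 genes lower at E13.5 sit mostly above 0 at E16.5, with a median of 0.40, whereas the 100 genes lower at E16.5 had a median of -0.05 at E13.5.

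Nearly all genes that were lower at E13.5 under IUHG increased in controls between E12.5 and E16.5. Of the 72 genes, 70 (97.2%) were higher in E16.5 female controls than in E12.5 controls, a pair of groups that shares no sample with the E13.5 effect, and the median rise was 3.81 log2 units. Over all genes tested 65.4% were higher. Of the 13 genes higher at E13.5, 1 was higher in E16.5 controls, with a median of -3.03. On a line from the mean of the E12.5 controls (0%) to the mean of the E16.5 female controls (100%) over all genes tested, the 3 E13.5 controls stood at 37.3%, 36.7% and 38.4% and the 3 E13.5 IUHG samples at 23.7%, 22.1% and 30.3%. E13.5 IUHG sample 3, which stood apart, was the closest to the controls. As the sex of the E12.5 pools was not determined, stage and sex cannot be told apart along this line. In the 153 genes the median change from E13.5 to E16.5 was 0.75 in controls and 2.95 under IUHG.

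Sequence upstream of the start was read for members with an entry in the RefSeq promoter table (build GRCm38.p6), which held 119 of the 153 genes that caught up from below, 46 of the 73 late lower genes and 12018 of all genes tested. In the 300 bases around the start (250 before and 50 after), 9 short patterns were searched on both strands. These were the E2F form TTCCCGC and its core TCCCGC, the E-box CACGTG and its longer form TCACGTGA, the cyclic AMP response form TGACGTCA, the nuclear receptor element AGGTCA, the homeobox form TAATTG, the other E-box form CAGGTG and, last, the form CGCGTG. A hit of each longer form is also a hit of the core it holds. TTCCCGC was in 16 (13.4%) of the genes that caught up from below, in 1 (2.17%) of the late lower genes and in 8.33% of all promoters, and CACGTG, bound by MAX and its partners, in 9 (7.56%), 7 (15.2%) and 9.90%. E2F6 and MGA with MAX are known to hold germline genes silent in other cells. TAATTG was in 3 (2.52%) of the genes that caught up from below, in 6 (13.0%) of the late lower genes and in 4.86% of all promoters, and AGGTCA in 19 (16.0%), 2 (4.35%) and 12.46%. For the other patterns, in the same order, TCCCGC was in 48 (40.3%), 12 (26.1%) and 34.5%, CAGGTG in 20 (16.8%), 11 (23.9%) and 18.6%, and CGCGTG in 17 (14.3%), 3 (6.52%) and 16.9%. TGACGTCA was in 3 (2.52%), 1 (2.17%) and 3.11%, and TCACGTGA in 0, 2 (4.35%) and 1.79%. Of the late higher genes, 13 had an entry, and 3 of these (23.1%) held TTCCCGC. The median number of CG pairs in the window was 17 in the first pattern, 9.5 in the late lower genes and 20 in all. The 250 bases before the start are printed for *Sycp3* and *Tex12*, as examples with both patterns picked after the matches were seen, and for *Figla*, the oocyte factor that stayed lower at both stages. Capitals mark TTCCCGC or CACGTG on either strand (GCGGGAA is the first on the other strand), and each line runs 5′ to 3′ on the strand of the gene. They lie at chr10:88459337-88459586 (plus strand), chr9:50561269-50561518 (minus strand) and chr6:86016941-86017190 (plus strand) of GRCm38.p6.
Sycp3: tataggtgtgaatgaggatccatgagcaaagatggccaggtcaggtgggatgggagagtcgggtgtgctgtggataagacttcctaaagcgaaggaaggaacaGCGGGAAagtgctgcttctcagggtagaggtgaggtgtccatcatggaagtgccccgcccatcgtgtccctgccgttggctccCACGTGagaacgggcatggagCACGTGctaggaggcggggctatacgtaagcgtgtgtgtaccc
Tex12: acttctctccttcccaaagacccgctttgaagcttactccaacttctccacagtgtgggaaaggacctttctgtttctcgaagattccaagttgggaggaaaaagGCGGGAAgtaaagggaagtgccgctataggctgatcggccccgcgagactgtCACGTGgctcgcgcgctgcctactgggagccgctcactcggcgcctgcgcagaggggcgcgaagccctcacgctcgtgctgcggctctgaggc
Figla: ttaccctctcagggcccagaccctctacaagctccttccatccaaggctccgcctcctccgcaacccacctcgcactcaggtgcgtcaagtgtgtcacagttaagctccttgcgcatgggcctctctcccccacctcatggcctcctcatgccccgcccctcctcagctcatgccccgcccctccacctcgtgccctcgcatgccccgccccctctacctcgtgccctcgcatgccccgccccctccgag
*Sycp3* holds TTCCCGC 147 bases before its start on the reverse strand and 2 copies of CACGTG, *Tex12* holds 1 of each, and the *Figla* window holds neither. A match describes letters in the window and not binding.

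In the other direction, 9 genes caught up from above, all of which had an E16.5 effect below 0. This count moved with the processing. It was 33 without E13.5 IUHG sample 2, 15 without E13.5 IUHG sample 3, 6 without E16.5 control sample 3, and 5 without E13.5 control sample 1 or 2, E16.5 control sample 1 or 2, or E16.5 IUHG sample 3. It was 20 on FPKM, 21 with median-of-ratios scaling, 18 after quantile normalization, 23 at a mean of at least 5 TPM and 4 without the filter. At an adjusted p below 0.05 it was 122, beside 263 from below, and with all PGC groups in one fit it was 314, beside 319 from below. *Hnrnpa1*, a splicing factor with many pseudogenes, was at 231, 220.1 and 294 TPM in E13.5 controls, 597, 624 and 889.7 TPM in E13.5 IUHG samples, 121, 106 and 119.8 TPM in E16.5 controls and 64.1, 79.5 and 81.5 TPM in E16.5 IUHG samples (interaction -2.11, limma adjusted p = 0.000161). The cytokine signaling inhibitor *Socs2*, the cohesion factor *Cdca5* and *Rest*, a repressor of neuronal genes, had interactions of -2.05, -1.77 and -2.50. *Rest* was at 37.7, 21.5 and 37.6 TPM in E13.5 controls, 97.0, 88.7 and 153 TPM in E13.5 IUHG samples, 25.8, 36.2 and 33.3 TPM in E16.5 controls and 13.7, 24.8 and 19.2 TPM in E16.5 IUHG samples, without overlap at either stage. Its call was lost without E16.5 control sample 2 or 3. *Eno1*, the glycolytic enolase, was the only call among 16 genes of glycolysis and glucose uptake (interaction -1.21, limma adjusted p = 0.00388), and that call was lost without any single E13.5 control, E13.5 IUHG sample 2, E16.5 control sample 1 or 2, or E16.5 IUHG sample 1 or 3. All 16 genes had an E13.5 effect above 0, with a median of 0.55, and at E16.5 the median was -0.16. The predicted gene *Gm30097* was listed at 0 in all E13.5 controls and at 7.58, 4.49 and 8.10 TPM in E13.5 IUHG samples, and at 0.911 TPM or less at E16.5.

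Of the 22 tested pluripotency and PGC identity genes, 4 passed the interaction test (*Dppa3*, *Dnd1*, *Dppa4* and *Sox2*), all below 0 (0.554% of all genes tested). The E13.5 effect was above 0 for all 22 (median 1.04), and 1 of them, *Tfap2c*, passed the test on the 6 samples of E13.5. The E16.5 effect was below 0 for 15 (median -0.44), and the interaction was below 0 for all 22. The E16.5 groups did not overlap for 9 genes with IUHG lower (13.4% of all genes tested) and for none with IUHG higher (13.7%). The number called was 6 without E13.5 IUHG sample 3, 3 without E16.5 IUHG sample 1 or sample 3, and 16 when all PGC groups of the series shared one estimate of the spread. *Sox2*, a pluripotency factor of PGCs, was at 22.9, 21.4 and 24.7 TPM in E13.5 controls, 71.8, 52.2 and 67.5 TPM in E13.5 IUHG samples, 1.04, 1.84 and 3.24 TPM in E16.5 controls and 0, 0.738 and 0.653 TPM in E16.5 IUHG samples. It was thus nearly off in both groups at E16.5, and its E16.5 effect of -1.03 rested on values close to the pseudocount of 1. The interaction call of *Sox2* was lost without any single E13.5 control, E13.5 IUHG sample 1, E16.5 control sample 2 or 3, or E16.5 IUHG sample 1 or 3. *Dppa4* had smaller effects of 0.58 and -0.81 (limma adjusted p = 0.000757 for the interaction).

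Other pluripotency genes had interactions of similar size that did not pass the threshold. *Nanog* was at 17.1, 15.1 and 26.9 TPM in E13.5 controls and 54.4, 65.0 and 59.5 TPM in E13.5 IUHG samples, and at E16.5 was listed at 0.494 TPM in 1 control and at 0 in the other 5 samples (interaction -1.78, limma adjusted p = 0.0218). *Sall4* was at 104, 132 and 379 TPM in the E13.5 IUHG samples, with the high value in sample 3, and at 46.1, 62.3 and 62.0 TPM in the controls (interaction -2.90, limma adjusted p = 0.0157). *Tfap2c* was called higher at E13.5 on its own 6 samples, at 96.2, 86.5 and 147 TPM against 28.2, 25.2 and 30.0 TPM, and lay below 2 TPM in all 6 samples at E16.5 (interaction -1.16, interval -2.13 to -0.20, limma adjusted p = 0.146). For genes that are switched off by E16.5 in both groups, the E16.5 effect on this scale is near 0 whatever the ratio. *Kit*, the receptor for KIT ligand, had effects of 1.02 and -1.82 (limma adjusted p = 0.0122), with 214 TPM in E13.5 IUHG sample 3 against 48.7 and 71.8 TPM in the others.

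**Figure D4:**
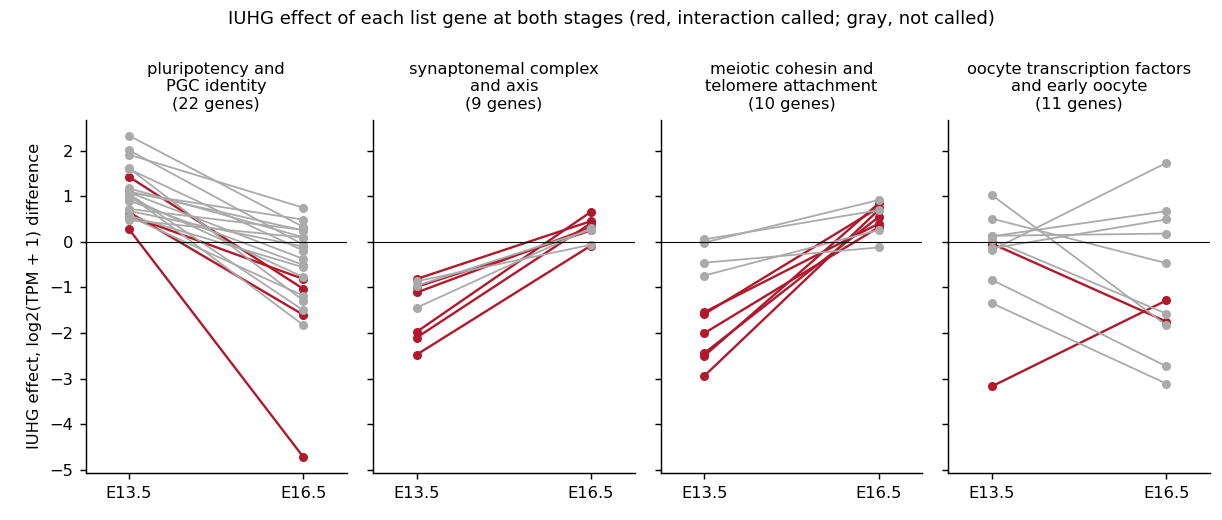
The E13.5 and E16.5 IUHG minus control differences in log2(TPM + 1) units for the genes of 4 lists, with 1 line per gene joining its stages (red where the interaction was called, gray where it was not). The genes of both meiotic lists run upward from the left to values near or above 0, while the 22 pluripotency and PGC identity genes run downward from a median of 1.04 to one of -0.44.

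Of the 73 late lower genes, 42 also passed the test on the 6 samples of E16.5, and 33 had a mean under 1 TPM in the E16.5 IUHG samples, which had fewer genes above 0 than the controls. The part of that difference in the pattern was not tested. The median effect was 0.38 at E13.5 and -2.05 at E16.5, and 31 of the 73 had E13.5 groups that did not overlap with IUHG higher (16.4% of all genes tested), which an interaction below 0 favors. On its own 6 samples, the E16.5 test called 38 genes higher (0.203% of 18753) and 100 lower (0.533%). Of the 100 lower genes, 37 had an E13.5 effect above 0 (56.0% of all genes did), with a median of -0.05. Of the 38 higher genes, 19 had an E13.5 effect above 0, with a median of 0.01.

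*Dppa3* (Stella), a maternal factor that protects DNA methylation in the egg and zygote and is high in early PGCs, had the largest E16.5 decrease of the 73 genes after the pseudogene *Rps2-ps13*. It was at 1850.2, 2229 and 1889 TPM in E13.5 controls, 2779.7, 2823 and 1755 TPM in E13.5 IUHG samples, 253, 227 and 184 TPM in E16.5 controls and 14.5, 2.53 and 9.81 TPM in E16.5 IUHG samples. The E13.5 groups overlapped and the E16.5 groups were far apart (E16.5 effect -4.72, interval -5.54 to -3.90, interaction -4.99 ± 0.542, SE, limma adjusted p = 8.06e-05, n = 3 per group). The tables list it (ENSMUSG00000046323.9) on chr6:122603369-122607231, plus strand, of Mm39. *Dnd1*, an RNA-binding protein needed for PGC survival, was at 28.3, 16.1 and 19.5 TPM in E16.5 controls and 5.75, 5.69 and 7.19 TPM in E16.5 IUHG samples, after 223 to 230.2 TPM and 313 to 379 TPM at E13.5.

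*Uchl1*, a ubiquitin hydrolase abundant in germ cells, was higher at E16.5 than at E13.5 in controls and lower in IUHG samples. It was at 97.8, 112 and 105 TPM in E13.5 controls, 115, 102 and 76.0 TPM in E13.5 IUHG samples, 296, 308 and 272 TPM in E16.5 controls and 32.6, 47.5 and 54.4 TPM in E16.5 IUHG samples (interaction -2.59, limma adjusted p = 7.46e-05). *Ckb*, brain-type creatine kinase, was at 79.8, 59.4 and 54.9 TPM in E16.5 controls and 1.63, 9.89 and 5.12 TPM under IUHG, and the phosphatase gene *Dusp12* at 31.5, 30.3 and 37.1 TPM and 3.80, 2.99 and 2.89 TPM. *Rps2-ps13*, a ribosomal protein pseudogene on the X chromosome, had the lowest interaction p of all late genes. It was at 301, 299.5 and 399 TPM in E13.5 controls, 555, 427 and 275 TPM in E13.5 IUHG samples, 94.7, 78.8 and 92.2 TPM in E16.5 controls and 0.709, 0.484 and 0.448 TPM in E16.5 IUHG samples. Reads of such a copy can come from its parent gene or from other copies, so that its level is uncertain.

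Among the oocyte transcription factors and early oocyte genes, 11 were tested. Of these, 5 (*Figla*, *Lhx8*, *Kit*, *Nobox* and *Sohlh1*) were lower at E16.5 by the test on its own 6 samples (0.533% of 18753 tested). *Lhx8*, a homeobox factor of the early oocyte, was at 3.45, 3.31 and 4.85 TPM in E13.5 controls, 4.25, 2.65 and 4.40 TPM in E13.5 IUHG samples, 132, 156 and 135 TPM in E16.5 controls and 41.1, 42.3 and 40.2 TPM in E16.5 IUHG samples. It was called below 0 (interaction -1.71, interval -2.37 to -1.04, limma adjusted p = 0.00541). *Sohlh1*, a helix-loop-helix factor of the same program, was at 331, 336 and 291 TPM in E16.5 controls and 39.8, 40.5 and 29.4 TPM in E16.5 IUHG samples, after 2.53, 3.4997 and 2.97 TPM in E13.5 controls and 0.326, 1.91 and 0 TPM in E13.5 IUHG samples. *Nobox* was at 113, 113 and 90.5 TPM in E16.5 controls and 11.0, 18.4 and 16.8 TPM under IUHG, and at 2.50 TPM or less at E13.5. Their interactions of -1.76 and -1.89 did not pass the threshold (limma adjusted p = 0.0353 and 0.0238). *Sohlh2* and *Taf4b* had E16.5 effects of 0.18 and 0.67, so the list did not move as one. The number of calls in the list was 1 above and 1 below 0, 1 and 5 without E13.5 IUHG sample 3, and none without E16.5 IUHG sample 1 or sample 3. *Lhx8* itself lost its call without any single sample of E16.5, E13.5 control sample 1 or 2, or E13.5 IUHG sample 1.

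The piRNA pathway, which silences transposons in germ cells, had no interaction call among 16 genes (limma), while 5 had an unadjusted p below 0.05, against 22.5% of all genes. With all PGC groups in one fit, 1 was called above 0. The missing interaction does not mean no IUHG difference. Of the 16 genes, 12 were lower under IUHG at E13.5 and 11 at E16.5. The medians were -0.40 and -0.26, against 0.08 and 0.01 over all genes. At E16.5 the groups did not overlap for 7 with IUHG lower (13.4% of all genes tested) and 2 with IUHG higher (13.7%). On each stage's own 6 samples, 1 was called lower at E13.5 (0.435% of all tested) and 2 at E16.5 (0.533%). *Tdrd1* was lower at both stages, at 15.5, 14.6 and 16.4 TPM in E13.5 controls, 4.85, 5.83 and 13.52 TPM in E13.5 IUHG samples, 30.6, 39.9 and 34.7 TPM in E16.5 controls and 16.2, 13.0 and 13.7 TPM in E16.5 IUHG samples, with an interaction interval of -1.14 to 0.64. *Mael* fell short of the size limit: its effects were -1.06 and -0.31 and its interaction 0.75 (limma adjusted p = 0.00784).

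The 27 late higher genes included 15 with a mean under 1 TPM in E16.5 controls. *Rps3a3*, which resembles the ribosomal gene *Rps3a1*, was at 95.8, 107 and 83.8 TPM in E13.5 controls, 122, 112 and 79.8 TPM in E13.5 IUHG samples, 2.09, 0.868 and 1.78 TPM in E16.5 controls and 25.6, 18.2 and 21.6 TPM in E16.5 IUHG samples, and its level is as uncertain as that of other copies. *Ctsm*, a cathepsin known from the placenta, was listed at 0 in all 6 samples of E13.5 and at 0, 0 and 0.0926 TPM in E16.5 controls, against 7.06, 9.37 and 5.73 TPM in E16.5 IUHG samples. The predicted gene *Gm27164* was listed at 0 in all 6 samples of E13.5 and was at 3.84, 7.10 and 4.97 TPM in E16.5 controls and 50.0, 39.8 and 50.7 TPM under IUHG. *Htra1*, a secreted protease, and *Efemp1*, a matrix protein, are also expressed by stromal cells. *Efemp1* was at 0, 0.0571 and 0 TPM in E16.5 controls and 11.3, 10.0 and 6.27 TPM in E16.5 IUHG samples, and *Htra1* at 2.69, 2.73 and 1.34 TPM against 8.39, 12.3 and 8.89 TPM. The interstitial markers were also higher in these samples (18.5 to 38.0 against 55.9 to 73.2 TPM in sum), with *Col1a1* at an E16.5 effect of 1.96, *Tcf21* at 1.87 and *Nr2f2* at -0.02. Mesothelial markers summed to 13.1 to 25.1 TPM and 25.5 to 39.1 TPM. The part of such cells in the late higher genes was not tested.

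In 50 genes the effect changed sign with more than 1 log2 unit at each stage: 31 went from lower to higher and 19 from higher to lower. The number was 26, 31 and 32 without E13.5 control sample 1, 2 or 3, 32 and 28 without E16.5 control sample 2 or 3, and 27 without E16.5 IUHG sample 3. It was 21 on FPKM, 29 without the filter on low values, 91 at an adjusted p below 0.05 and 106 with all PGC groups in one fit. *Eaf2*, an elongation factor partner, and *Stk11* (LKB1), the kinase that activates AMPK, were called at each stage on that stage's own 6 samples with opposite signs. *Eaf2* was at 79.6, 77.9 and 66.1 TPM in E13.5 controls, 22.1, 23.0 and 23.3 TPM in E13.5 IUHG samples, 94.9, 78.3 and 83.7 TPM in E16.5 controls and 188, 187 and 192 TPM in E16.5 IUHG samples. *Stk11* was at 9.31, 13.0 and 8.95 TPM in E13.5 controls, 46.7, 45.3 and 65.1 TPM in E13.5 IUHG samples, 55.2, 62.8 and 60.1 TPM in E16.5 controls and 13.2, 20.6 and 19.8 TPM in E16.5 IUHG samples. The order of the *Stk11* groups was thus opposite at the stages (interaction -3.92 ± 0.323, SE, limma adjusted p = 6.42e-06, n = 3 per group). *Marcksl1*, an actin regulator, went from 262 ± 20.2 against 531 ± 52.6 TPM to 154 ± 17.3 against 75.0 ± 4.83 TPM (SD, n = 3, control against IUHG), and the carnitine transporter gene *Slc22a21* from 15.6 ± 0.0881 against 3.497 ± 1.06 TPM to 24.2 ± 0.869 against 51.7 ± 4.38 TPM. The growth factor *Ptn*, which stromal cells express, was at 4.08, 5.89 and 9.22 TPM in E13.5 controls, 3.02, 2.11 and 0 TPM in E13.5 IUHG samples, 6.24, 10.1 and 12.2 TPM in E16.5 controls and 34.7, 46.5 and 38.7 TPM under IUHG, and its call was lost without any single sample of E16.5 or E13.5 control sample 2 or 3.

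Genes called with one sign at both stages were few, as were calls at either stage. On the 6 samples of each stage, 85 genes were called at E13.5 and 138 at E16.5. A missed call does not show that a difference was absent. The count below was 19 at an adjusted p below 0.05 and 42 with all PGC groups in one fit. In the fit over 12 samples, 3 genes (0.0146%) were called at both stages with the same sign: *Figla* lower, and *Tpm3-rs7* and *Scarna8* higher. *Figla*, the helix-loop-helix factor that starts the zona pellucida genes, was at 75.4, 89.8 and 78.0 TPM in E13.5 controls, 11.1, 10.2 and 4.62 TPM in E13.5 IUHG samples, 823, 795 and 735 TPM in E16.5 controls and 339, 317 and 308 TPM in E16.5 IUHG samples. All 3 IUHG samples were below all controls at each stage, and the effect was smaller at E16.5 (-3.17, interval -3.65 to -2.68, and then -1.28, interval -1.77 to -0.80, interaction 1.88, limma adjusted p = 0.0035). The interaction call was lost without any single sample of the 3 groups other than E13.5 IUHG. In absolute terms the control minus IUHG gap widened, from means of 81.0 and 8.62 TPM to means of 784 and 321 TPM. *Figla* is listed on chr6:85994173-85997978, plus strand, of Mm39 (ENSMUSG00000030001.5).

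*Tpm3-rs7*, a tropomyosin 3 related sequence that can share reads with *Tpm3*, was at 8.51, 7.50 and 9.12 TPM in E13.5 controls, 38.4, 47.9 and 55.8 TPM in E13.5 IUHG samples, 0.790, 0.180 and 0.450 TPM in E16.5 controls and 11.1, 7.03 and 5.88 TPM in E16.5 IUHG samples, with an interaction interval of -0.63 to 1.10. The small RNA *Scarna8* was listed at 0 in all 6 controls and at 5.83, 1.65 and 2.81 TPM and 5.12, 8.96 and 2.87 TPM in the IUHG samples of the stages. RNAs of this kind lack the poly(A) tail on which the library method relies, and its level is uncertain. The genes with unequal effects of one sign beside *Figla* were *Cd55*, a complement regulator, which was at 38.9, 48.9 and 37.0 TPM in E16.5 controls and 1.18, 3.91 and 3.24 TPM under IUHG after a smaller difference at E13.5 (-1.12), and *Rbm45*, an RNA-binding protein gene, with effects of 1.01 and 3.32. Both lost the interaction call without any single E13.5 control, E13.5 IUHG sample 2, E16.5 control sample 1 or 2, or E16.5 IUHG sample 3, *Cd55* also without E16.5 control sample 3, and *Rbm45* also without E13.5 IUHG sample 1 or E16.5 IUHG sample 1.

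Other genes that the study names for female PGCs did not pass the interaction test. The chromatin factors *Ctcf*, *Atrx* and *Tet1* had E13.5 effects of 1.14, 1.76 and 1.62 and E16.5 effects of -0.33, 0.23 and 0.19, with limma adjusted p of 0.0193, 0.055 and 0.102. E13.5 IUHG sample 3 had the highest value of its group for each, for example 105 TPM of *Ctcf* against 64.4 and 45.7 TPM. *Trp53* was at 243, 279 and 440.1 TPM in E13.5 IUHG samples against 96.6 to 116 TPM in controls, and the groups overlapped at E16.5 (interaction -1.45, limma adjusted p = 0.0237). *Tex15*, *Enpp3* and *Six4* had interactions of 1.15, -1.38 and -0.81. *Foxl2*, *Wnt4* and *Rspo1*, genes of the supporting cells of the ovary, were at low levels in these sorted cells, with means between 0.252 and 10.9 TPM, and their intervals all held 0.

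The study's own lists gave 29 calls above 0 and 1 below (*Dnd1*) among 62 tested meiosis genes, with medians of -1.06 and 0.29, and 3 above 0 and 2 below among 57 tested pluripotency genes, with medians of 1.02 and -0.08. The study chose these lists on these samples, so their E13.5 direction is no independent evidence. The 3 calls above 0 of its pluripotency list were *Med21*, a Mediator subunit, *Tuba3b*, an alpha tubulin, and *Ptn*, and those below 0 were *Rest* and *Sox2*. *Tuba3b* lost its call without E13.5 control sample 1 or 3, E16.5 control sample 1 or 2, or E16.5 IUHG sample 3. No gene was called by limma over the 12 samples in the lists of BMP and retinoic acid response, DNA methylation enzymes, PRC1.6 and Polycomb, p53 targets, integrated stress response, cholesterol synthesis and mitochondrially encoded proteins. At an unadjusted p below 0.05 these lists held 4 of 16, 4 of 8, 5 of 15, 8 of 16, 6 of 12, 4 of 18 and 5 of 13 genes, against 22.5% of all genes. Without E13.5 IUHG sample 3, 2 p53 targets were called below 0. With all PGC groups in one fit, the first 6 of these lists held 0 calls above and 2 below 0, 0 and 2, 0 and 1, 1 and 4, 2 and 2, and 0 and 1, and the mitochondrial list none.

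**Figure D5:**
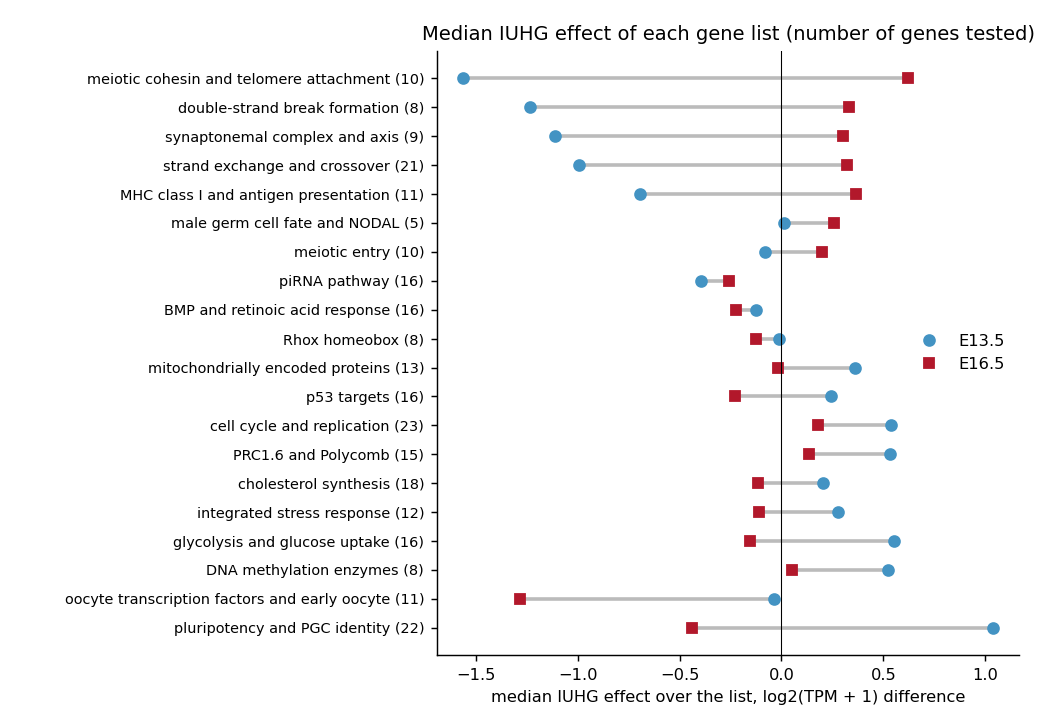
Median IUHG minus control difference of each gene list at E13.5 and at E16.5, in log2(TPM + 1) units. The meiotic cohesin and telomere list has the lowest E13.5 median, at -1.56, and lies at 0.62 at E16.5, and the oocyte list has the lowest E16.5 median of the functional lists, at -1.28.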

How the data were processed

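PGCs were sorted by Oct4-EGFP and pooled, and RNA was amplified by a Smart-seq2 type protocol. Per the study's methods, the authors trimmed reads with Trim Galore, checked them with FastQC and aligned unique reads to Mm39 with STAR. The deposited tables hold TPM and FPKM per gene, both normalized to library and gene length by the authors, and read coverage as a signal. The aligned gigabases were estimated as the median ratio of coverage to FPKM over genes, and were not a sum of reads. The settings of the program that made them are not given in the sources used here, and the authors' DESeq2 tests on featureCounts counts were not used here. The interaction was fitted on log2(TPM + 1) with limma 3.58.1 (R 4.3.3) over 12 samples, 1 mean per group, a mean-variance trend in the empirical Bayes step and two-sided p-values, adjusted over 20584 genes after Benjamini and Hochberg. Calls needed an adjusted p below 0.01 and a difference over 1. Each stage was also fitted on its own 6 samples. The procedure was also run on simulated data with independent samples and the same spread in every group. In the real samples the median SD per gene was 0.21 in E13.5 controls and 0.40 in E13.5 IUHG samples. The simulation therefore says nothing on unequal spread, outlying samples or samples that are not independent. Genes were named when the study names them for female PGCs, when they had the 4 lowest interaction p in a pattern (with 1 predicted gene or copy each), or when they were called members of a list, up to 4 per list. Genes given as examples beside these were chosen after their values were seen. Members, patterns and lists were chosen with earlier results of these data known. Alternatives were other scalings, filters, pseudocounts, thresholds, blocks and each sample left out.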

Additional observations from a re-analysis of the deposited data

Results flagged for a closer look

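A difference of the IUHG effect between the stages, by the limma interaction test, marked 385 genes and, among the named genes, 62. Groups of 3 samples were too small for a test of single outlying samples. The interactions below are E16.5 minus E13.5 effects in log2(TPM + 1) units.

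Among the genes that caught up from below, the interaction was 2.31 for *Stra8* and 3.74 for *Meiosin*. In the synaptonemal complex it was 2.50 for *Sycp3*, 2.63 for *Tex12*, 1.43 for *Syce1* and 2.39 for *Syce3*. In cohesin and telomere attachment it was 2.98 for *Majin*, 3.34 for *Spdya*, 3.63 for *Rad21l* and 2.33 for *Terb2*. In break formation and strand exchange it was 3.15 for *Prdm9*, 1.59 for *Zcwpw1*, 3.32 for *Iho1*, 3.03 for *Mei1*, 2.38 for *Meiob*, 3.85 for *Spata22*, 2.33 for *Msh5* and 2.03 for *Dmc1*. Other germline genes had values of 3.07 for *Taf7l*, 2.99 for both *Tex101* and *Dmrtc2*, 2.91 for *M1ap*, 1.61 for *Slc25a31*, 2.08 for *Rhox13* and 2.16 for *1700013H16Rik*. The class I genes *H2-D1*, *H2-K1* and *B2m* had 4.43, 2.64 and 1.62, the cyclin gene *Ccne2* had 2.13 and *Med21* had 1.46.

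Among the genes that caught up from above, the interaction was -2.11 for *Hnrnpa1*, -3.46 for *Gm30097*, -2.05 for *Socs2*, -1.77 for *Cdca5*, -2.50 for *Rest* and -1.21 for *Eno1*. Among the late lower genes it was -6.14 for *Rps2-ps13*, -3.27 for *Dusp12*, -2.59 for *Uchl1*, -4.99 for *Dppa3*, -4.47 for *Ckb*, -2.25 for *Dnd1* and -1.71 for *Lhx8*. Among the late higher genes it was 3.05 for *Rps3a3*, 3.00 for *Ctsm*, 2.95 for both *Gm27164* and *Efemp1*, and 2.45 for *Htra1*.

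Among the genes whose effect changed sign, the interaction was 2.80 for *Eaf2*, 4.21 for ENSMUSG00000121644, -3.92 for *Stk11*, -2.04 for *Marcksl1*, 2.97 for *Slc22a21*, 3.01 for *H2-Q4*, 3.61 for *Ptn* and -2.45 for *Sox2*. ENSMUSG00000121644, a gene without a symbol on chromosome 8, was at 129, 115 and 98.5 TPM in E13.5 controls, 55.1, 27.9 and 27.3 TPM in E13.5 IUHG samples, 18.8, 19.1 and 20.6 TPM in E16.5 controls and 135, 104 and 115 TPM in E16.5 IUHG samples. With neither effect over 1 there were *Dppa4* (-1.39), *Hormad1* (1.23) and *Tuba3b* (1.53). With unequal effects of one sign there were *Figla* (1.88), *Rbm45* (2.31) and *Cd55* (-2.44).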

How the results depend on the processing

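The counts of interaction, caught-up, late and persisting genes were 385, 162, 100 and 3. With a single sample left out they ran from 193 to 623, from 100 to 257, from 37 to 153 and from 1 to 6, highest without E13.5 IUHG sample 3. Of the 385 genes, 191 were among the 193 called without E16.5 IUHG sample 3 and 368 among the 623. Without both E13.5 IUHG sample 3 and E16.5 IUHG sample 1, chosen after seeing the data, there were 584, 160 late and 8 persisting genes. Without the filter on low values there were 235, 57 late and 1 persisting, and at an adjusted p below 0.05 there were 1127, 385, 381 and 19. With all PGC groups in one fit there were 2124, 633, 757 and 42, and the share of calls above 0 was 42.8%, against 70.4%. That share was 52.1% at an adjusted p below 0.05 and 60.1% without the trend. With stage effects called on their own 6 samples, 66 genes caught up and 52 were late. A pseudocount of 0.1 gave 65 late genes. Persisting genes numbered 5 on FPKM or after quantile normalization, 7 with no fold threshold and 1 without the trend. A replicate block within stage gave 238 interaction calls and 43 late genes, and a block over both stages gave 329 calls. Correlations over genes, after removal of group means, were -0.08 to 0.12 between samples with the same number. Noise in single samples can hide a shared batch, so these values do not settle whether the numbers pair the samples. Of the 62 called named genes, 44 kept the call under every alternative run, 18 lost it under 1 or more and none changed sign. The cause of these shifts was not tested, apart from the fewer samples or genes that an alternative used. Depth was known only as an estimate of aligned sequence, so counting error per gene could not be given.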
